A study of Paraphaeosphaeria sporulosa with 23 samples.

Results

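The comparison described here set 4 RNA sequencing libraries from cultures that had spent 6 days with selenite against 5 libraries from cultures that had spent 1 day with it. These 9 of the 23 libraries of the series were taken by the titles in their labels, and the comparison covered all 15164 genes in the table of expression values, of which 13676 had enough reads to be tested. The organism was the filamentous fungus Paraphaeosphaeria sporulosa, strain AP3s5-JAC2a. Homogenised mycelium from a preculture of 14 days was kept in the dark without shaking, in a medium based on yeast extract, for 18 days. Sodium selenite was then added to 0.1 mM, and that moment was day 0. The selenite cultures of day 6 and day 1 were thus of the same strain, medium and dose and differed by the time since selenite was added and by the age of the culture. Cultures without selenite, with 5 libraries at day 6, 6 at day 1 and 3 at day 0, were treated in the same way otherwise, and they give the change over the same days without selenite. The labels give every library the same batch and the whole organism as its tissue. Each library therefore averages mycelium of all ages in a flask, and fewer cells of a kind and less RNA per cell cannot be told apart. The labels do not say whether each replicate was a flask of its own, so the p-values rest on the spread among these libraries, which may be technical in part.

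Selenite is an oxyanion of selenium(IV) that enters cells and oxidises thiols such as glutathione. Many fungi reduce it to solid elemental selenium, which collects as particles in or on the hyphae, or to volatile methylated forms. Genes of this species carry locus tags and no product names in the tables used here, so the results below name genes by tag and position and give no function for them.

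Reads of a gene are given as scaled CPM, the deposited CPM (reads scaled to a common library total) divided by a TMM factor, a trimmed-mean factor that evens out libraries in which a few genes take up many reads. Values per library are listed in the order of the replicate numbers. A gene was called changed at an adjusted p under 0.05 in limma, a linear model fitted across all genes. Total reads per library ran from 23282564 to 32681888 over the series and did not separate the groups of this comparison, with 29530228 ± 3914823 in selenite libraries of day 6 (SD, n = 4) and 27536477 ± 1582003 in those of day 1 (n = 5; exact permutation p = 0.349, two-sided, adjusted 0.349 over 6 summaries). TMM factors were 1.16 to 1.41 at day 6 and 0.557 to 0.684 at day 1, so the choice of scale moves every log2 change in this comparison, and it is named below wherever it turns a direction.

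Between day 1 and day 6 the reads of selenite cultures spread over more genes. The 100 genes with the most reads in a library held 32.5%, 24.2%, 31.8% and 30.5% of its reads at day 6, against 61.7%, 60.8%, 53.7%, 53.8% and 58.0% at day 1. Every library of day 6 lay below every library of day 1, with means of 29.8% ± 3.79 (SD, n = 4) and 57.6% ± 3.79 (n = 5; exact permutation p = 0.0159, two-sided, adjusted 0.0190). That is the smallest p these numbers of libraries allow. The gene with the most reads in a library took 3.202% ± 0.760 of them at day 6 and 10.98% ± 1.51 at day 1. Genes at 1 CPM or more numbered 11589 ± 224 and 10591 ± 188, and genes without any read 1365 ± 218 and 2397 ± 327, at day 6 and day 1. None of these 3 summaries overlapped between the days, and each gave the same exact permutation p of 0.0159, adjusted 0.0190. Outside the 100 leading genes of a library, 20806196 ± 3483199 reads were left for the other genes at day 6 and 11699110 ± 1517377 at day 1. This difference in depth for the other genes moves with the number of genes seen, and its part in that number was not tested. In controls the leading 100 genes also held a smaller share at the later day, with 27.8% ± 3.23 at day 6 (n = 5) and 41.2% ± 2.83 at day 1 (n = 6). In controls, genes without a read numbered 2348 ± 324 at day 6 and 2783 ± 258 at day 1. Genes at 1 CPM or more also became more numerous in controls, with 11257 ± 123 at day 6 and 10134 ± 216 at day 1. The gene with the most reads in a control library took 4.16% ± 2.29 at day 6 and 5.74% ± 1.02 at day 1.

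**Figure D1:**
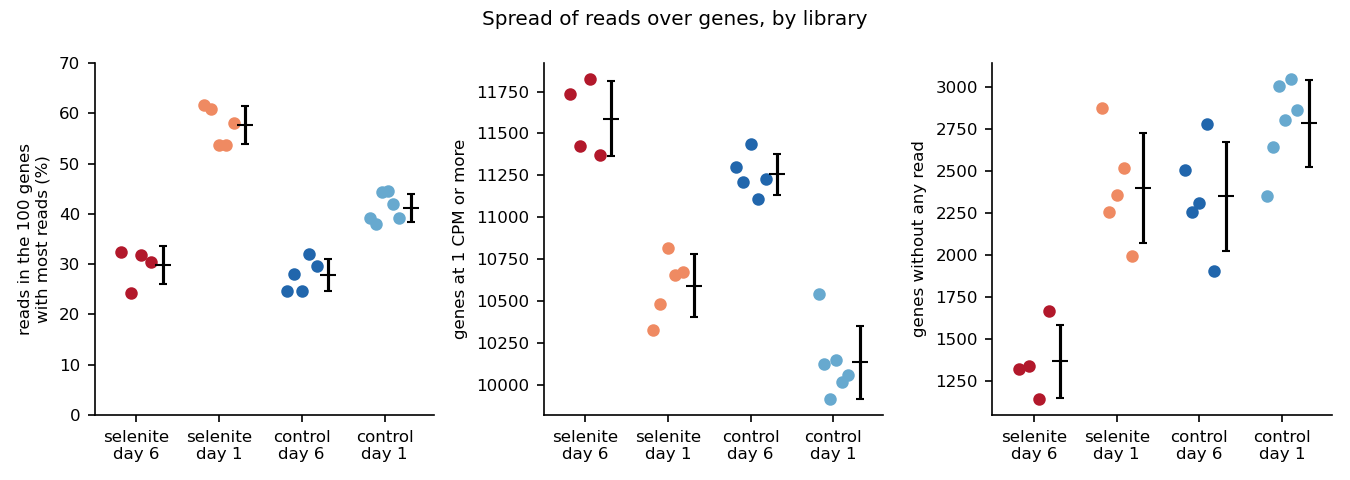
Each dot is a library; the cross and bar beside each group give its mean and SD, for selenite day 6 (n = 4), selenite day 1 (n = 5), control day 6 (n = 5) and control day 1 (n = 6). The left panel shows the percent of reads in the 100 genes with the most reads, the middle panel the number of genes at 1 CPM or more and the right panel the number of genes without a read; in all 3 the selenite libraries of day 6 lie apart from those of day 1. The middle and right axes do not start at 0.

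Of the 13676 tested genes, 6456 (47.2%) were called between day 6 and day 1 in selenite cultures. On the TMM scale 3416 were higher at day 6 (25.0%) and 3040 lower (22.2%), and changes of 2-fold or more were close in number, 2277 higher (16.6%) and 2226 lower (16.3%). The balance of directions depended on the scale. Higher genes made up 52.9% of the calls on the TMM scale, but 45.2% on that of DESeq2 size factors (2874 higher, 3491 lower). With library size alone they made up 87.7% (7659 higher, 1076 lower). Over all tested genes the median log2 change was 0.11 with TMM factors; DESeq2 size factors shifted it by −0.11 and library size alone by 0.82. All 3416 genes called higher on the TMM scale were called higher without a factor too, whereas 1076 of the 3040 called lower kept that call and 147 were called higher. Of the 2226 genes lower by 2-fold or more, 2175 still had a log2 change under 0 with library size alone. For 4826 tested genes (35.3%) the 4 libraries of day 6 and the 5 of day 1 did not overlap, and 4527 of these were called, 2219 higher and 2308 lower.

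On the TMM scale more genes fell than rose by 8-fold or more. With TMM factors 224 genes were lower by 8-fold or more (1.64%) and 28 were higher by as much (0.205%); the numbers were 262 and 21 with DESeq2 size factors, while library size alone gave 69 lower and 259 higher, which turns the imbalance round. Shares of reads, which use no scaling factor, describe the same genes. The 224 genes held 2.43% ± 0.438 of reads in selenite libraries of day 6 (SD, n = 4) and 18.3% ± 2.09 in those of day 1 (n = 5), against 7.19% ± 1.24 in controls of day 6 (n = 5), 11.6% ± 0.899 in controls of day 1 (n = 6) and 9.58% ± 2.06 in controls of day 0 (n = 3). The 28 genes that rose held 0.391% ± 0.103 at day 6 and 0.0151% ± 0.00364 at day 1 with selenite, and 0.0421% ± 0.0119, 0.0672% ± 0.0134 and 0.293% ± 0.197 in controls of day 6, day 1 and day 0. At control day 0 the share of these 28 genes ranged from 0.0655% to 0.420% over the 3 libraries and lay mostly in CC84DRAFT_238584. That gene alone held 0.245% ± 0.190 at control day 0, against 0.0787% ± 0.0244 at selenite day 6. The totals of these 2 groups thus do not describe a like level of each gene. Taken whole, the 3040 genes called lower held 35.5% ± 5.39 of the reads at day 6 with selenite, 75.2% ± 2.73 at day 1 with selenite, and 40.8% ± 1.66, 52.0% ± 2.44 and 34.7% ± 0.222 in controls of day 6, day 1 and day 0. The 3416 genes called higher held 28.3% ± 6.12 and 5.52% ± 0.906 at day 6 and day 1 with selenite, and 22.7% ± 0.928, 17.0% ± 1.27 and 26.4% ± 0.671 in the same controls. From day 1 to day 6 the means of the controls differed in the same direction as those of selenite cultures for both lists. The 7220 tested genes that were not called also held more at day 6, with mean shares of 36.1% against 19.3% with selenite. In controls their mean shares were 36.5% at day 6 and 31.02% at day 1. A larger share in controls of day 6 was thus not particular to the genes called higher with selenite. The called genes were chosen by the change itself, so their shares describe its size and are no test of it.

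**Figure D2:**
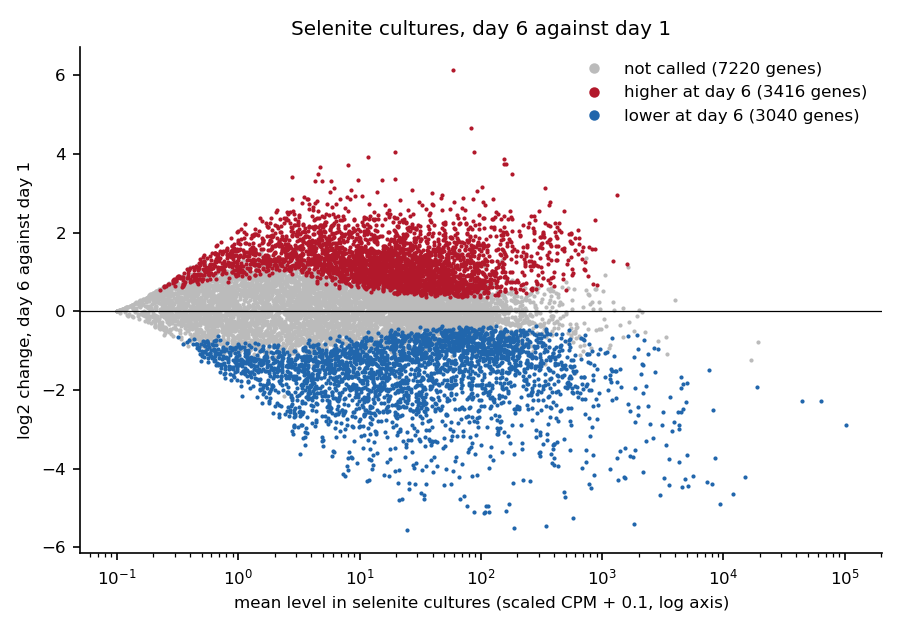
Each dot is a tested gene, placed by its mean level in selenite cultures on a log axis (horizontal, scaled CPM plus 0.1) and its log2 change at day 6 against day 1 (vertical); red genes were called higher, blue genes lower and grey genes were not called. More genes lie at −3 or below (224 called) than at 3 or above (28 called). In the top of 5 classes of equal size by mean level, 39.0% of genes were called lower and 21.6% higher. All calls shown are on the TMM scale.

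The genes with the most reads lost much of their share. The 3 genes with the highest mean scaled CPM were the same at both days, CC84DRAFT_1180339, CC84DRAFT_666498 and CC84DRAFT_1226245. CC84DRAFT_1180339, with 1 exon on NW_017253371.1 (minus strand, 86589 to 87170), had 26798, 16102, 29582 and 25241 scaled CPM in the 4 selenite libraries of day 6, against 205695, 225379.9, 143097, 134106 and 184988 in the 5 of day 1. Every day 6 value lay far under every day 1 value. In shares of reads it held 3.14% ± 0.688 at day 6 and 10.98% ± 1.51 at day 1 (SD). Its log2 change was −2.88 ± 1.10 (SE, limma adjusted p 0.0335). That call was lost under 9 of 22 alternatives, among them each omission of selenite day 1 replicates 1, 2 and 5 and of selenite day 6 replicates 2 and 4 (log2 changes −2.91 to −2.69, limma adjusted p 0.0532 to 0.0807). The fit pools its error over the 5 groups, and for this gene the controls of day 6 ranged from 584 to 52969.8 scaled CPM.

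CC84DRAFT_666498, of 1 exon on NW_017253363.1 (plus strand, 2629812 to 2631440), had 26612, 10629, 30833 and 21081 scaled CPM at day 6 with selenite and 146373, 124543, 79332, 79949.7 and 90039.6 at day 1. The groups did not overlap, and the log2 change was −2.28 ± 0.80 (limma adjusted p 0.0218), a call lost under 4 of 22 alternatives, among them the omission of selenite day 6 replicate 2 (−1.96, adjusted p 0.0768) and library size alone (−1.23, adjusted p 0.0993). CC84DRAFT_1226245, of 3 exons on NW_017253360.1 (minus strand, 2996894 to 2999243), had 14057, 9181, 20440.3 and 18798 and, at day 1, 80479, 82961, 63605, 62277 and 74733 scaled CPM, again without overlap (log2 change −2.28 ± 0.69, limma adjusted p 0.00818). That call was kept under 20 of 22 alternatives. In controls these 3 genes also had lower means at day 6 than at day 1, for example 5738 ± 4801 and 23592 ± 7289 scaled CPM for CC84DRAFT_666498. For none of the 3 did the change in selenite cultures differ from that in controls by the limma test of the difference (adjusted p 0.985, 0.719 and 0.862), in which the controls of day 6 spread widely.

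Among the next genes by loss of level, 1 shared its fall with the controls and the other did not. CC84DRAFT_1158872, of 6 exons on NW_017253360.1 (minus strand, 528907 to 530737), had 1592, 1335, 1891 and 1158 scaled CPM at day 6 with selenite and 46809, 25485, 22721, 19580.2 and 29099.7 at day 1, a log2 change of −4.22 ± 0.62 (limma adjusted p 5.61e-06). In controls it had 96.03 ± 54.3 at day 6 and 4580.2 ± 1383 at day 1, a log2 change of −5.91 ± 0.56 (adjusted p 1.9e-08), and the difference between the changes was not called (adjusted p 0.105). CC84DRAFT_1083401, of 3 exons on NW_017253361.1 (plus strand, 870212 to 870690), had 1528, 1345, 495 and 602 and, at day 1, 32635, 26895, 16316, 16254 and 22982 scaled CPM with selenite. Every day 6 library was more than 10-fold below every day 1 library, with a log2 change of −4.65 ± 0.43 (limma adjusted p 5.15e-09). The controls had 6159 ± 2649 at day 6 and 4386 ± 784 at day 1. Its change with selenite lay −5.05 ± 0.57 from theirs on the log2 scale (limma adjusted p 2.62e-07).

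The 5 largest falls on the log2 scale showed different histories in the controls. CC84DRAFT_1222623, of 2 exons on NW_017253373.1 (plus strand, 217071 to 218124), had 0.799, 0.533, 0.831 and 0.105 scaled CPM at day 6 with selenite and 44.6, 37.96, 54.3, 64.4 and 42.7 at day 1. The day 6 values lay at or under the level of the controls, which held 1.66 ± 0.777 at day 6 and 2.58 ± 1.54 at day 1. Its log2 change of −5.57 ± 0.39 (limma adjusted p 7.4e-11) leans on the pseudocount, because day 6 values were near or below 1, and ran from −6.73 to −4.29 over the alternatives. CC84DRAFT_1231262, of 2 exons on NW_017253372.1 (plus strand, 199532 to 200575), had 18.5, 5.25, 8.98 and 3.08 at day 6 and 328, 289.8, 500.4, 469 and 256 scaled CPM at day 1. In controls it stayed low, with 1.80 ± 1.38 at day 6 and 1.08 ± 0.475 at day 1. The selenite change was −5.51 ± 0.48 (limma adjusted p 1.92e-09).

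CC84DRAFT_939345, of 3 exons on NW_017253367.1 (minus strand, 1265793 to 1267383), fell in both kinds of culture. It had 22.3, 9.87, 20.3 and 7.66 scaled CPM at day 6 with selenite and 1165, 555, 398, 495 and 749.6 at day 1, while controls had 53.96 ± 14.6 and 463 ± 107. The log2 changes were −5.47 ± 0.30 with selenite and −3.09 ± 0.27 without it (limma adjusted p 1.45e-12 and 5.82e-09), and the difference between them, −2.37 ± 0.40, was called (adjusted p 4.15e-05). CC84DRAFT_1193263 and CC84DRAFT_1262069 were at high levels in every other group and low in selenite cultures of day 6 alone. CC84DRAFT_1193263, of 3 exons on NW_017253361.1 (minus strand, 744671 to 746744), had 62.7, 72.7, 86.9 and 114 scaled CPM at day 6 with selenite and 4559.9, 4920.3, 2884, 2625 and 3001 at day 1, against 949.8 to 1675 in controls of day 6 and 2550.4 to 3657 in controls of day 1. CC84DRAFT_1262069, of 3 exons on NW_017253368.1 (minus strand, 525148 to 525991), had 30.5, 20.4, 23.7 and 36.9 and, at day 1, 1209.9, 1862, 855, 806 and 879, against 855 to 1375 and 838 to 1633 in controls of day 6 and day 1. No selenite library of day 6 came near any of the others for these genes. Their log2 changes were −5.40 ± 0.26 and −5.26 ± 0.26 with selenite and −1.24 ± 0.23 and −0.18 ± 0.24 in controls, and both differences were called (limma adjusted p 4.59e-09 and 3.34e-10).

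The 5 largest rises were of genes that were scarce in every group but selenite cultures of day 6. CC84DRAFT_1160435, of 5 exons on NW_017253361.1 (minus strand, 156749 to 158816), had 133, 239, 19.4 and 72.2 scaled CPM at day 6 with selenite and 0, 3.004, 0.106, 0 and 3.69 at day 1. The lowest day 6 library lay above the highest of day 1, and the day 6 libraries themselves spread more than 10-fold. Controls had 2.34 ± 1.22 at day 6 and 1.57 ± 1.04 at day 1. The log2 change was 6.13 ± 0.65 (limma adjusted p 4.6e-08); with day 1 values this low it ran from 4.82 to 8.34 over the alternatives. CC84DRAFT_1167530, of 1 exon on NW_017253368.1 (plus strand, 1628522 to 1629310), had 132, 237, 189 and 84.8 at day 6 and 3.19, 2.32, 10.04, 7.86 and 7.51 scaled CPM at day 1, a log2 change of 4.66 ± 0.47 (limma adjusted p 2.39e-08).

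CC84DRAFT_1259115, of 2 exons on NW_017253364.1 (plus strand, 1008018 to 1009618), had 148, 373, 34.1 and 118 scaled CPM at day 6 with selenite and 10.8, 4.78, 4.02, 8.16 and 8.996 at day 1 (log2 change 4.05 ± 0.45, limma adjusted p 8.67e-08). CC84DRAFT_1070043, of 1 exon on NW_017253366.1 (plus strand, 1897366 to 1898148), had 43.3, 30.1, 7.42 and 8.18 and, at day 1, 0, 0.751, 2.11, 0.0995 and 1.55 (log2 change 3.92 ± 0.50, limma adjusted p 8.85e-07; 2.79 to 5.36 over the alternatives). For both genes replicate 3 had the lowest day 6 value, and no day 6 library overlapped day 1. CC84DRAFT_793897, of 1 exon on NW_017253365.1 (minus strand, 591179 to 592374), had 40.5, 59.04, 44.4 and 6.32 scaled CPM at day 6 with selenite and 1.15, 2.46, 0.845, 1.69 and 0.715 at day 1, a log2 change of 4.05 ± 0.70 (limma adjusted p 4.19e-05). Replicate 4 lay far below the other day 6 libraries for this gene. Controls also averaged more of it at day 6 (7.03 ± 3.83) than at day 1 (1.90 ± 3.203), and it was the only gene of these 5 for which the difference between the changes was not called (limma adjusted p 0.128, and 1.37e-05, 5.53e-07, 1.11e-06 and 1.51e-05 for the others as named above).

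**Figure D3:**
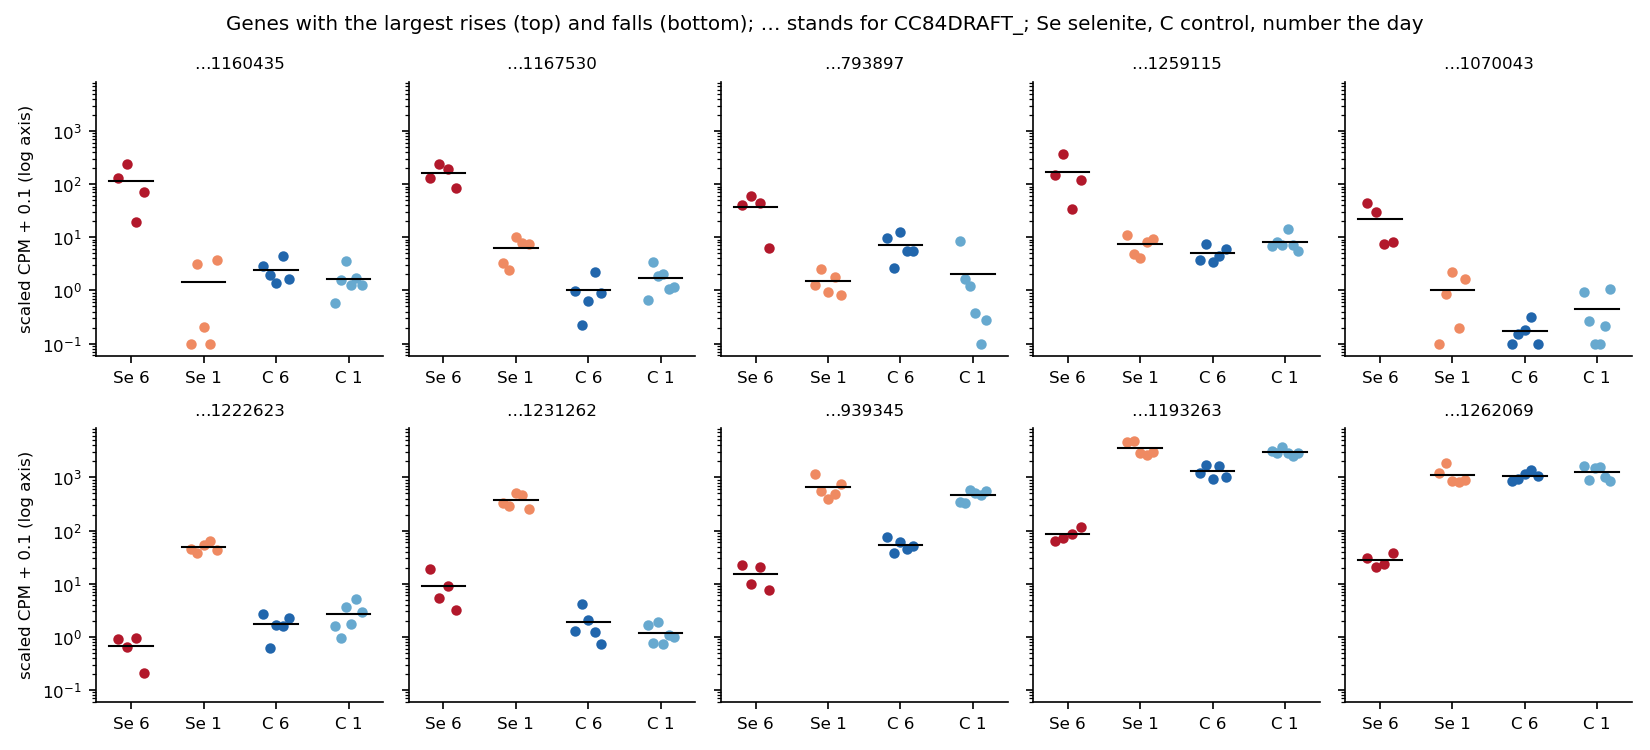
Each dot is a library and each line a group mean, in scaled CPM plus 0.1 on a log axis, for the 5 genes with the largest rises (top row) and the 5 with the largest falls (bottom row) at day 6 against day 1 with selenite. In the top row the selenite libraries of day 6 stand above the other groups, except for replicate 4 in CC84DRAFT_793897, which lies among the controls of day 6, and in the bottom row they stand below those of selenite day 1 in every panel.

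Rises of the largest size in scaled CPM were of genes already well expressed at day 1. STRG.4849, a gene model added by the authors, with 1 exon on NW_017253364.1 (minus strand, 1956294 to 1956910), had 925, 2282, 2751 and 3430.2 scaled CPM at day 6 with selenite and 342, 176, 379.9, 241 and 263 at day 1. It was low in controls, with 7.71 to 11.3 at day 6 and 4.72 to 13.96 at day 1. Its log2 change with selenite was 2.96 ± 0.32 (limma adjusted p 7.11e-08), and it sat in a run of 4 adjacent genes that rose by 2-fold or more. CC84DRAFT_1103118, of 5 exons on NW_017253372.1 (plus strand, 62060 to 64299), had 2934, 2176, 1511 and 2377 and, at day 1, 813, 906, 1097, 934 and 1074 scaled CPM, against 226 ± 118 in controls of day 6 and 247 ± 59.7 in controls of day 1 (log2 change with selenite 1.19 ± 0.32, limma adjusted p 0.00382). Replicate 3 was the lowest of day 6 for this gene and still lay above all of day 1.

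CC84DRAFT_635293, of 4 exons on NW_017253363.1 (plus strand, 1527751 to 1528707), had 674, 1774, 1370.2 and 2094 scaled CPM at day 6 with selenite, 268, 224, 318, 371 and 205 at day 1 with selenite, 202, 505, 253, 575 and 489 in controls of day 6 and 1104, 2637, 2326, 1671, 2264 and 2174 in controls of day 1. Selenite libraries were high at day 6 and low at day 1, and controls the other way round. The log2 changes were 2.33 ± 0.38 with selenite and −2.39 ± 0.34 without it (limma adjusted p 2.13e-05 and 5.46e-06), and the difference was called (adjusted p 1.44e-07). CC84DRAFT_1149190 and CC84DRAFT_1120069 rose with selenite by 1.27 ± 0.34 and 1.596 ± 0.40 (limma adjusted p 0.00323 and 0.00193). Their scaled CPM ran from 834 to 2624 and 573 to 2064 at day 6, and from 548 to 798 and 309 to 502 at day 1. For 4 of these 5 genes selenite day 6 replicate 1 was the lowest library of its day.

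Some well expressed genes had log2 changes near 0 on the TMM scale. CC84DRAFT_1161403, of 3 exons on NW_017253361.1 (plus strand, 3413932 to 3415065), had 140.1, 140.5, 135 and 144 scaled CPM at day 6 with selenite and 171, 128, 128, 125.7 and 111 at day 1 (log2 change 0.09 ± 0.14, limma adjusted p 0.627). CC84DRAFT_1112757 and CC84DRAFT_1151239 had log2 changes of −0.03 ± 0.14 and −0.07 ± 0.14. These genes were picked for a small change on the TMM scale, and without a factor (library size alone) all 3 were called higher, by 1.14, 1.01 and 0.99 on the log2 scale. CC84DRAFT_1161403 was lower in controls of day 6, at 166 ± 21.2 scaled CPM, than in controls of day 1, at 315 ± 26.3, a log2 change of −0.92 ± 0.13 (limma adjusted p 3.92e-06). That fall, too, is on the TMM scale. In shares of reads, which use no factor, the gene held 0.0245% ± 0.00418 in controls of day 6 and 0.0262% ± 0.00272 in controls of day 1.

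Cultures without selenite also changed over the same days, and most genes called in either kind of culture were not called in the same direction in both. Between control day 6 and control day 1 limma called 5973 genes (43.7%), 2954 higher (21.6%) and 3019 lower (22.1%). Here too the balance turned with the scale, to 3296 higher and 2691 lower on that of DESeq2 size factors and 6900 higher and 989 lower with library size alone. The counts of shared and opposite directions that follow were taken on the TMM scale alone. The 2 comparisons share no library. Without control day 6 replicates 1 and 3, which lay apart from the other controls of that day, 3949 genes were called in controls, a count taken after the data had been seen. The 752 genes higher in both kinds of culture were 22.01% of those higher with selenite and 25.5% of those higher in controls. Those shares were close to the ones over all tested genes, 21.6% higher in controls and 25.0% higher with selenite. The 915 genes lower in both were 30.1% and 30.3%, beside 22.1% of all tested genes lower in controls and 22.2% lower with selenite. Of the 3416 genes higher with selenite, 770 were called lower in controls, beside 22.1% of all tested genes. Of the 3040 lower with selenite, 489 were called higher in controls, beside 21.6% of all tested genes. All of these also passed the test of the difference between the changes, an outcome that the opposite calls largely fixed. Over the tested genes, which are not replicates of each other, the log2 changes with and without selenite correlated weakly (Pearson 0.12, Spearman 0.10).

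By the limma test of the difference itself, the change between the days differed between selenite and control cultures for 5930 genes (43.4%). The difference was positive for 3098 of them (22.7%) and negative for 2832 (20.7%). This balance turned to 2461 positive and 3416 negative with DESeq2 size factors, and to 2205 and 2744 without control day 6 replicates 1 and 3, while library size alone gave 3601 and 2085. The counts that follow are on the TMM scale. They are of genes chosen by their change with selenite, and the test of the difference uses the same selenite values. A difference of the same sign was thus favoured by the choice, and the counts are description only. Of the 3416 genes that rose with selenite, 2006 (58.7%) had a difference of the same sign, 1388 had none that was called and 22 rose more in controls. Of the 3040 that fell with selenite, 1855 (61.0%) had a difference of the same sign, 1101 had none and 84 fell more in controls. Among the 752 genes higher in both kinds of culture the difference was not called for 687. Among the 915 lower in both it was not called for 666, was larger with selenite for 165 and smaller for 84.

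**Figure D4:**
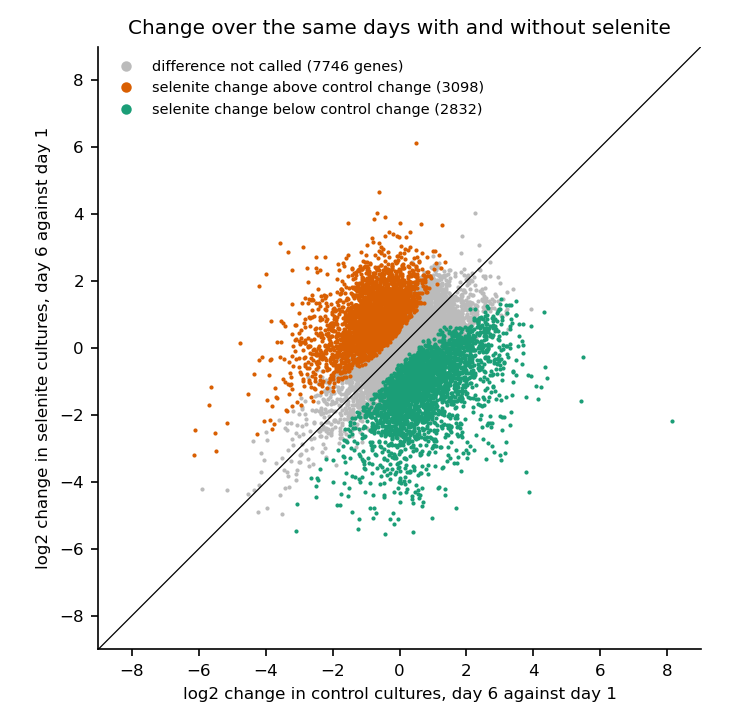
Each dot is a tested gene, placed by its log2 change at day 6 against day 1 in control cultures (horizontal) and in selenite cultures (vertical); the line marks equal changes. Orange genes changed more positively with selenite and green genes more negatively by the limma test of the difference, and grey genes were not called; the cloud is broad in both directions and not drawn out along the line.

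Genes picked for the largest differences moved in opposite directions with and without selenite, with CC84DRAFT_8385, CC84DRAFT_1131304 and CC84DRAFT_1138657 falling with selenite while rising in controls. CC84DRAFT_53426, of 3 exons on NW_017253360.1 (minus strand, 1809126 to 1810659), had 57.9, 105, 109.9 and 161 scaled CPM at day 6 with selenite and 15.2, 18.3, 33.02, 26.96 and 19.1 at day 1, whereas controls had 1.96, 4.58, 1.31, 7.29 and 3.92 at day 6 and 39.9, 71.4, 80.9, 42.8, 67.4 and 67.2 at day 1. It rose by 2.21 ± 0.35 with selenite and had a log2 change of −3.99 ± 0.31 in controls, a difference of 6.20 ± 0.47 (limma adjusted p 1.28e-09). CC84DRAFT_8385, of 13 exons on NW_017253360.1 (minus strand, 524898 to 527882), had 105, 29.1, 75.2 and 34.7 at day 6 with selenite and 791, 1014, 493, 480.0 and 921 scaled CPM at day 1. In controls it had 2183, 1303, 2233, 1548 and 1765 at day 6 and 1233, 255, 61.8, 200.0, 27.6 and 38.7 at day 1, where replicate 1 stood well above the others of day 1. The log2 changes were −3.72 ± 0.68 and 3.79 ± 0.61, and the difference was −7.51 ± 0.91 (limma adjusted p 6.4e-07).

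The other 4 genes of this choice repeat the pattern with other levels. CC84DRAFT_238584 had 418, 785, 512 and 711 scaled CPM at day 6 with selenite and 66.99, 64.7, 105, 65.3 and 43.2 at day 1, a log2 change of 3.14 ± 0.72 (limma adjusted p 0.000858). CC84DRAFT_1219326 had 24.6, 100.1, 127 and 257 and, at day 1, 19.3, 23.2, 11.3, 10.6 and 5.48, a log2 change of 2.88 ± 0.58 (adjusted p 0.000252). Both rose with selenite, and in controls their log2 changes were −3.56 ± 0.65 and −3.32 ± 0.53. CC84DRAFT_1131304 had 23.96, 30.3, 25.5 and 12.6 at day 6 and 449, 784, 340.3, 234 and 639 scaled CPM at day 1 with selenite, a log2 change of −4.31 ± 0.47 (limma adjusted p 8.71e-08). CC84DRAFT_1138657 had 7.76, 2.60, 3.27 and 1.97 and 17.8, 18.6, 12.6, 23.6 and 15.7, a smaller change of −2.18 ± 0.62 (adjusted p 0.00553) beside a rise of 8.15 ± 0.56 in controls.

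Set beside the controls of each day, the genes that changed by 2-fold or more with selenite had medians apart from controls at day 1. The choice by a large gap between the selenite days favours selenite values far from controls on at least 1 day. These comparisons with controls use the same selenite libraries as the comparison between days, so they are given side by side as values only. The 2226 genes that fell had a median log2 difference of 1.88 between selenite and control cultures at day 1 and of 0.36 at day 6, with a median change of −1.66 between the days with selenite and −0.08 without. The 2277 genes that rose had median differences from controls of −1.05 at day 1 and 0.33 at day 6, with median changes of 1.43 with selenite and 0.07 without. Over all tested genes the 4 medians were −0.02 at day 1, 0.12 at day 6, 0.11 with selenite and 0.03 without. At day 1, 1430 of the 2277 genes that rose were called below controls, 136 above and 711 neither. Of the 2226 that fell, 1694 were called above controls, 198 below and 334 neither. Of all 13676 tested genes, 4215 were called above, 4339 below and 5122 neither. The 28 genes that rose by 8-fold or more were unlike the larger group: their median difference from controls was −0.12 at day 1 and 3.63 at day 6.

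The 4 selenite libraries of day 6 were not equally far from day 1. On the first principal component of the 9 selenite libraries, which held 60.1% of the variance, they lay at 48.97, 97.55, 69.5 and 83.7, against −71.9 to −48.7 for day 1. Replicate 1 was the nearest to day 1, and replicate 2 the farthest. For 52.0% of the called genes replicate 1 had the day 6 value closest to the day 1 mean, against 8.21%, 22.3% and 17.6% for replicates 2, 3 and 4. The median change of called genes, taken in the direction of the call, was 0.98 on the log2 scale in replicate 1 and 1.48, 1.24 and 1.37 in the others. Replicate 1 also had the fewest reads of the 4, 23987323. Its part in these differences was not tested. Without replicate 1 limma called 6462 genes, and without replicate 2 it called 5491. Within groups the spread was alike, with a median SD per gene of 0.39 at day 6 and 0.42 at day 1 on the log2 scale.

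Calls were spread unevenly over levels and lengths of genes. With the tested genes split into 5 classes of equal size by mean level, 21.6% of the top class were higher and 39.01% lower at day 6, and of the bottom class 14.5% were higher and 9.87% lower. By length of exons, 30.1% of the longest class (2106 to 21621 bases) were higher and 20.5% lower, against 21.2% and 23.8% of the shortest (72 to 820 bases). Of the 278 tested genes with STRG names, 14.8% were higher and 23.7% lower, against 25.2% and 22.2% of the 13398 with locus tags. The share of reads in STRG genes was all the same larger at day 6, 0.965% ± 0.116, than at day 1, 0.587% ± 0.0374 (SD, n = 4 and 5; exact permutation p = 0.0159, adjusted 0.0190). STRG.4849 alone held 0.300% ± 0.124 of reads at day 6 and 0.0176% ± 0.00579 at day 1. The directions of these counts are on the TMM scale, and with library size alone most called genes were higher.

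Some of the changed genes were neighbours. Runs of 4 or more adjacent tested genes that all rose by 2-fold or more numbered 31 and held 134 of the 2277 genes that rose so. Runs that fell numbered 39 and held 171 of 2226 genes. These counts are on the TMM scale. With library size alone 6375 genes were called higher and 777 lower by 2-fold or more, and runs were not counted on that scale. No test was made of the counts of runs, and neighbours that share a promoter region or overlap are not independent. The longest rising run had 7 genes on NW_017253367.1 (208885 to 224119), with log2 changes of 1.16 to 1.501. Its first gene, CC84DRAFT_1166409, had 188, 438, 363 and 536 scaled CPM at day 6 with selenite and 136, 112, 137, 160.4 and 127 at day 1 (log2 change 1.41 ± 0.24, limma adjusted p 3.02e-05). It overlaps the second, CC84DRAFT_1250284, on the other strand, and counting used strand. CC84DRAFT_1250284 had 32.2, 52.5, 23.7 and 27.4 and, at day 1, 13.7, 15.3, 7.93, 11.7 and 8.70, while CC84DRAFT_1096904 had 41.5, 27.03, 32.8 and 40.6 and 11.7, 10.2, 13.2, 16.7 and 20.5. Both were below the controls of their day at either time, with control means of 70.1 ± 9.74 and 72.9 ± 9.59 for CC84DRAFT_1250284. Of its 7 genes, 6 passed the test of the difference from controls. CC84DRAFT_897956, the least expressed, with 1.18, 1.02, 0.882 and 1.84 scaled CPM at day 6 and 0.255, 0, 0.211, 0.348 and 0.357 at day 1, was not called by edgeR or DESeq2 on whole reads.

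Several runs of 5 genes rose, and the 2 with the largest mean change are described. In a run of 5 genes on NW_017253361.1 (4349291 to 4368295) the log2 changes were 1.39 to 2.74. CC84DRAFT_1161688 had 69.8, 245, 333 and 348 scaled CPM at day 6 and 34.1, 34.4, 49.98, 55.96 and 36.3 at day 1 with selenite (log2 change 2.34 ± 0.55, limma adjusted p 0.00119), and CC84DRAFT_1139706 had 69.2, 167, 176 and 222 and 48.995, 24.03, 34.6, 38.01 and 28.1. Replicate 1 was the lowest of day 6 in both, above every day 1 library. Controls rose as well for CC84DRAFT_1161688, by 1.52 ± 0.50 (adjusted p 0.0157). Another run of 5 genes, on NW_017253363.1 (1469421 to 1477218), had changes of 1.02 to 2.13. Of its genes 3 passed the test of the difference from controls, and 2 were called higher in controls too. These were CC84DRAFT_1163333, with log2 changes of 1.02 ± 0.23 with selenite and 1.53 ± 0.21 in controls, and CC84DRAFT_634914, with 2.13 ± 0.47 and 1.22 ± 0.43. In CC84DRAFT_634914, CC84DRAFT_634913 and CC84DRAFT_1163335 the selenite libraries of day 6 and day 1 overlapped. In the same run CC84DRAFT_634908 had 15.5, 59.1, 55.5 and 64.7 at day 6 and 9.31, 15.02, 8.40, 8.61 and 8.22 scaled CPM at day 1 with selenite. For this gene controls fell, with 27.9 ± 12.05 at day 6 and 56.8 ± 13.4 at day 1 (log2 changes 2.09 ± 0.37 and −1.09 ± 0.33, limma adjusted p 4.93e-05 and 0.00932).

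The 3 falling runs described by gene held genes that were far above controls at day 1 and genes that also fell in controls. The first of them also held genes that rose in controls. A run of 6 genes on NW_017253362.1 (1962583 to 1978774) had log2 changes of −3.32 to −1.51. CC84DRAFT_1215049 in it had 92.5, 41.6, 97.9 and 87.9 scaled CPM at day 6 and 956, 889, 666, 691 and 655 at day 1 with selenite, against 1.19 to 11.4 in controls of day 6 and 17.3 to 69.2 in controls of day 1. CC84DRAFT_583066, the first gene of the run, had 4.54, 3.87, 9.06 and 5.97 and, at day 1, 36.2, 79.1, 55.2, 28.95 and 66.4, and under 1 scaled CPM in every control library. CC84DRAFT_582847, next to CC84DRAFT_1215049, had 1.25, 0.311, 1.22 and 1.66 at day 6 and 4.91, 10.5, 8.24, 4.18 and 9.65 at day 1 and no read in any control library of any day. In all 3 every selenite library of day 6 was still above every control of that day. CC84DRAFT_1185388, at the end of the run, was by contrast highest in controls of day 1, at 6968 ± 1674 scaled CPM.

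In the run of 6 genes on NW_017253360.1 (4316077 to 4326922) all 6 genes were also called lower in controls. CC84DRAFT_1109448 had 50.99, 28.5, 18.9 and 15.9 scaled CPM at day 6 and 129.7, 124, 125.7, 147 and 95.1 at day 1 with selenite, and 243 ± 73.03 and 1421 ± 324 in controls of day 6 and day 1 (log2 changes −2.23 ± 0.27 and −2.57 ± 0.24, limma adjusted p 2.81e-07 and 1.56e-08). Only CC84DRAFT_158157 of its 6 genes passed the test of the difference, with 29.5, 21.5, 17.4 and 11.1 at day 6 and 296, 328, 156, 165 and 164 at day 1. The third run of 6, on NW_017253367.1 (1436517 to 1452908), ended in CC84DRAFT_1097572, which had 413, 192, 219 and 225 scaled CPM at day 6 and 3867, 3667, 3033, 3117 and 2837 at day 1 with selenite (log2 change −3.71 ± 0.55, limma adjusted p 6.58e-06) and also fell in controls (−3.37 ± 0.50, adjusted p 8e-06). CC84DRAFT_1219979 of the same run had 8.69, 2.07, 13.1 and 8.87 and 63.5, 97.6, 45.3, 42.1 and 64.3 and stayed at 0.249 to 1.44 in controls of day 6 and 0 to 0.806 in controls of day 1. The weakest member of the run, CC84DRAFT_1178604, had a log2 change of −1.001 ± 0.32, which was 0.05 with library size alone and lost its call without selenite day 6 replicate 2 (−0.79, limma adjusted p 0.0699). The fourth run of 6, also on NW_017253362.1 (619881 to 639782), had the smallest mean change of the 4 and is not described by gene. Its log2 changes were −2.07 to −1.21, none of its genes was called lower in controls, and 5 of them passed the test of the difference.

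**Figure D5:**
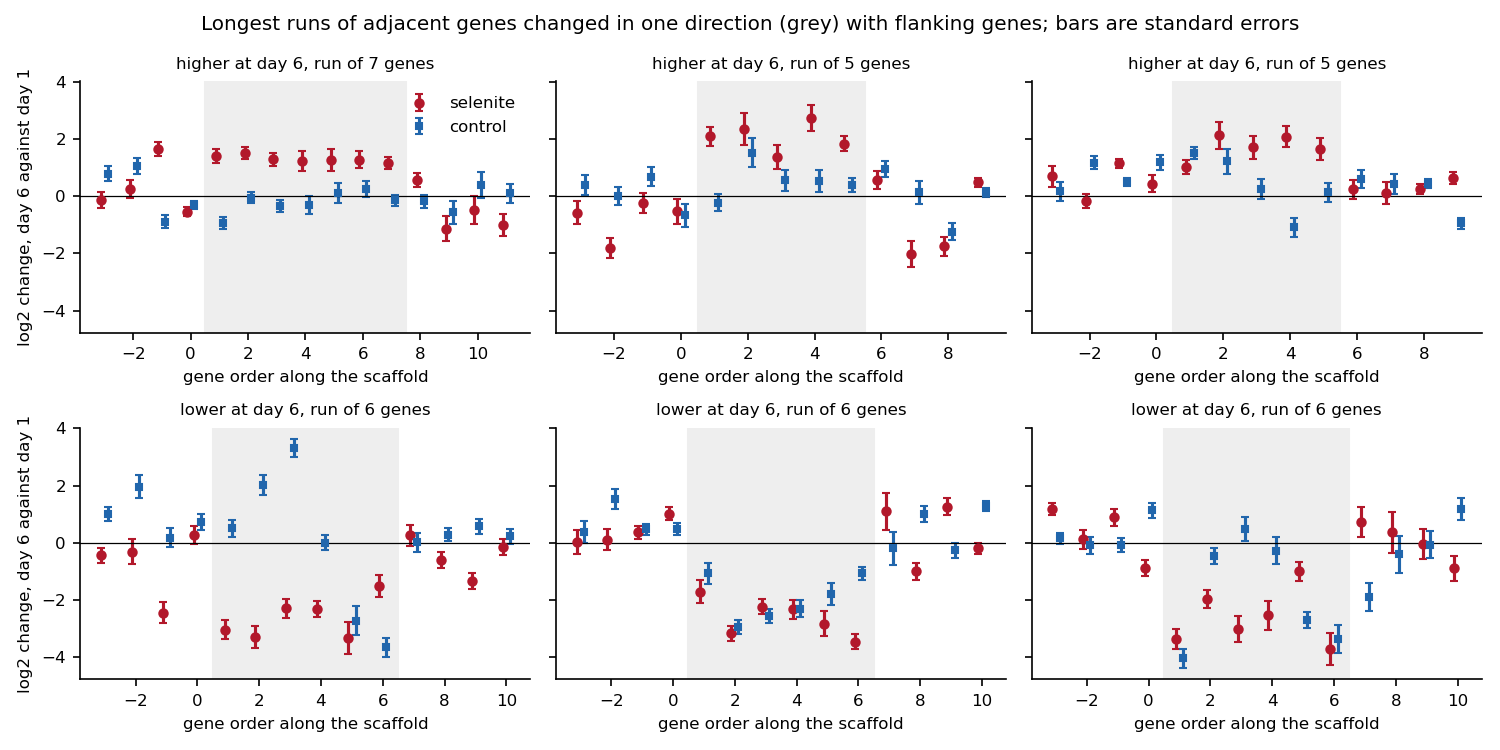
Each panel shows a run of adjacent genes (grey band) with up to 4 genes on either side, in their order along the scaffold; red dots are log2 changes at day 6 against day 1 in selenite cultures and blue squares those in control cultures, with standard errors from the fit. The top row holds rising and the bottom row falling runs; inside the band of the bottom middle panel the blue squares lie below 0 with the red dots, and in the other bands they scatter on both sides of 0.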

How the data were processed

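RNA of whole cultures was sequenced from 23 stranded libraries of messenger RNA. Trimmomatic 0.39, STAR 2.7.1a, featureCounts (Subread 2.0.6) and edgeR 3.36.0 in R 4.1.0 are named in the submitters' processing notes, with a genome build not given in the sources used here. A table of CPM was deposited by the authors, holding the reads of a gene scaled to a common total over all genes of the library. Exon positions and gene length, another kind of value, were taken from the deposited count table per the file headers, whose read counts were not used. The tables of the authors' own comparisons were not used. Whole reads recovered from the steps of the CPM values were whole to within 0.001 reads for 100.0% of 348772 values, and gave the library totals. Intervals of counting error are not printed, since reads of mates are not independent molecules.

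Values were divided by TMM factors (edgeR 4.0.16), 0.5 was added, and log2 values of the 13676 genes kept by filterByExpr (minimum count 10, minimum total 15) entered a limma 3.58.1 fit (R 4.3.3, trend on, 5 group means, all 23 libraries, no block). The filter left out 1488 genes. A log2 change on this scale is smaller than the true one for genes with few reads. Tests were two-sided, with Benjamini-Hochberg adjustment over all genes tested. Library summaries were compared by exact permutation in SciPy 1.17.1. Alternatives were edgeR's quasi-likelihood test, DESeq2 1.42.0 and limma-voom on whole reads, other scalings, pseudocounts of 0.1 and 2, no filter, a test against a 1.5-fold change and each library left out. The scripts were tested on simulated data.

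Named genes were, among called genes without overlap and with at least 10 scaled CPM in the higher group, the 5 with the largest log2 change and the 5 with the largest change in scaled CPM in each direction, and the 3 with the largest difference from the control change in each direction. Added to these were the 3 genes with the highest level at each day, 3 uncalled genes with the least error among those at 100 scaled CPM or more with a log2 change within 0.1, and the genes of the 3 longest runs in each direction (of runs of equal length, those with the largest mean absolute log2 change), 64 in all. The comparison, this rule and the alternatives were chosen with earlier results of these data known. Lists by product name, protein pattern or promoter word were not analysed here.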

Additional observations from a re-analysis of the deposited data

Results flagged for a closer look

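Of 140 groups of values examined (64 named genes and 6 library summaries in the 2 selenite groups, genes on the log2 scale), 3 held a library apart from the rest of its group, where chance gives about 1 in 20. CC84DRAFT_634908 had 15.5 scaled CPM in selenite day 6 replicate 1, under the other 3, and 15.02 in selenite day 1 replicate 2, above the other 4, so the days were closest in those libraries. CC84DRAFT_1215049 had 41.6 scaled CPM in selenite day 6 replicate 2, below the others of its day.

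The change between day 6 and day 1 differed between selenite and control cultures for 5930 genes by the limma test of the difference (43.4% of those tested), and for 44 of the 64 named genes. The named genes were picked for large changes, 6 of them for this difference, so their count is no result about them. The values that follow are the selenite change minus the control change on the log2 scale. Among the largest rises with selenite the difference was 5.64 for CC84DRAFT_1160435, 5.28 for CC84DRAFT_1167530, 4.73 for CC84DRAFT_1259115 and 4.36 for CC84DRAFT_1070043. Among the largest falls it was −5.13 for CC84DRAFT_1222623, −5.93 for CC84DRAFT_1231262, −2.37 for CC84DRAFT_939345, −4.16 for CC84DRAFT_1193263, −5.09 for CC84DRAFT_1262069 and −5.05 for CC84DRAFT_1083401. Genes with the largest rise in level had 2.81 (STRG.4849), 1.49 (CC84DRAFT_1103118), 4.71 (CC84DRAFT_635293), 1.92 (CC84DRAFT_1149190) and 2.09 (CC84DRAFT_1120069). Genes chosen for this difference had 6.70 (CC84DRAFT_238584), 6.20 (CC84DRAFT_1219326), 6.20 (CC84DRAFT_53426), −10.33 (CC84DRAFT_1138657), −8.20 (CC84DRAFT_1131304) and −7.51 (CC84DRAFT_8385). CC84DRAFT_1161403, steady with selenite on the TMM scale, had 1.01.

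In the rising run of 7 genes the values were 2.34 (CC84DRAFT_1166409), 1.56 (CC84DRAFT_1250284), 1.64 (CC84DRAFT_1096904), 1.53 (CC84DRAFT_897956), 1.03 (CC84DRAFT_1150497) and 1.31 (CC84DRAFT_897986). The rising runs of 5 genes gave 2.32 (CC84DRAFT_1139706), 2.20 (CC84DRAFT_1139713) and 1.43 (CC84DRAFT_1184756), and 1.46 (CC84DRAFT_634913), 3.18 (CC84DRAFT_634908) and 1.52 (CC84DRAFT_1163335). In the falling runs they were −3.55 (CC84DRAFT_583066), −5.29 (CC84DRAFT_1215047), −5.60 (CC84DRAFT_1085259), −2.32 (CC84DRAFT_582847) and 2.15 (CC84DRAFT_1185388), then −2.38 (CC84DRAFT_158157), then −1.51 (CC84DRAFT_1166833), −3.51 (CC84DRAFT_1219979), −2.27 (CC84DRAFT_954045) and 1.70 (CC84DRAFT_1178604).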

How the results depend on the processing

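Over alternatives other than those named next, counts of called genes stayed within 1.5 times the reported ones. Tested against a change of 1.5-fold, limma called 2748 genes with selenite, 2181 in controls and 3079 for the difference, fewer by construction. Without control day 6 replicates 1 and 3, chosen after seeing the data, controls gave 3949 calls. With each library left out in turn, calls ran from 5491 to 6462 with selenite, 5133 to 6409 in controls and 5291 to 6302 for the difference. Day 6 minus day 1 then ran from 919 to 1071 for genes at 1 CPM or more, −1133 to −913 for genes without reads, 0.334 to 0.426 percentage points for STRG reads, −28.8 to −26.0 for the leading 100 genes, −8.26 to −7.36 for the leading gene, and 943197 to 3841386 for total reads. At any fold 74 runs rose and 83 fell on the TMM scale. With library size alone log2 changes were 0.99 for CC84DRAFT_1151239, 1.01 for CC84DRAFT_1112757 and 0.05 for CC84DRAFT_1178604, opposite to the TMM scale. Of 1408 combinations of a named gene and an alternative, 1374 kept direction and call, 30 lost the call, 1 gained it and 3 turned round. The labels do not say what a replicate number shares between days. Same-numbered selenite libraries of day 6 and day 1 had correlations of deviations of −0.09 to 0.08, and those of controls −0.13 to 0.40. In controls, day 6 replicate 3 and day 1 replicate 1 had 0.48, so these correlations cannot settle whether the numbers pair the samples. With a replicate block on 8 selenite libraries 5575 genes were called, against 5856 in the same 8 without it, and with the block 5429 for the difference.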

Other observations

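Some genes had reads on only 1 of the days. In 93 genes every selenite library of day 6 had a read and none of day 1 did, whereas a single gene, CC84DRAFT_1133459, had reads in all 5 libraries of day 1 (26, 6, 50, 46 and 46) and none at day 6. No read fell in 478 genes in any of these 9 libraries, and 11112 genes had reads in all 9. The following 3 were chosen after their values were seen. CC84DRAFT_1158677 had 20, 107, 65 and 138 reads at day 6 and CC84DRAFT_1160669 had 54, 151, 16 and 66, with at most 14 reads of either in a control library. CC84DRAFT_1157302 had 22, 81, 48 and 48 reads in selenite libraries of day 6, none in those of day 1, 54 to 189 in controls of day 6 and up to 56 in controls of day 1. Its reads were thus missing with selenite at day 1 where most controls had some. Libraries of day 1 had fewer reads outside their leading genes, and the part of that difference in these counts was not tested.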
